A study of Mus musculus with 5 samples.

Results

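The 3 stretches described here are the whole-megabase windows of the mouse genome with the most β-catenin regions found by both captures after CHIR99021. They are named for Msi2 (chromosome 11, 88000001 to 89000000), Etl4 (chromosome 2, 20000001 to 21000000) and Jarid2 (chromosome 13, 44000001 to 45000000), in mm9 coordinates. They were chosen by that number, which makes it a description and not a finding. A peak was a member when its summit fell in a window. This gave 190 of the 44750 deposited peaks, 80 from anti-FLAG, 70 from CHIR99021 streptavidin and 40 from DMSO.

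β-Catenin carries the nuclear signal of the canonical Wnt pathway. It does not bind DNA by itself and reaches chromatin mainly through the TCF/LEF factors, of which Tcf7l1 is prominent in embryonic stem cells. GSK3 marks β-catenin for destruction, and CHIR99021, a GSK3 inhibitor, lets it accumulate. Msi2 encodes Musashi-2, an RNA-binding protein that regulates translation and is best known from stem and progenitor cells. Etl4, also called Skt or Sickle tail, is known from the notochord and the intervertebral discs. Jarid2 encodes an accessory subunit of the Polycomb repressive complex PRC2, which helps to bring that complex to its targets in embryonic stem cells.

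All libraries came from a V6.5 embryonic stem cell line with a biotin-acceptor and 3xFLAG tag knocked into Ctnnb1 and with the biotin ligase BirA, grown in serum and LIF on DR4 feeder cells. One group received CHIR99021 at 3 µM and was captured with anti-FLAG, another received the same and was captured with streptavidin, and the third received DMSO and was captured with streptavidin. The dose is that of the treatment field, while the extract protocol gives 3 mM. Treatment lasted 16 hours by the protocol, while the series text gives 24. The DMSO capture follows the labels. The run itself was named for FLAG, while the ChIP data it read were named for biotin. Each group was 1 library from 1 knock-in line, so no value has a replicate error and no difference between conditions could be tested. Feeder cells were reduced by collecting the cells that stayed afloat on gelatinized plates. A ChIP from cells with BirA but no tag was not analysed here. The CHIR99021 libraries had 16100920 (anti-FLAG) and 11934863 (streptavidin) unique tags and were called against the same input library. The DMSO library was called against its own input and its depth is unknown, so an absent DMSO peak is an absent call and sets no limit on binding. DMSO peaks were called with a fragment shift of 30 bp against 185 and 214 bp, so their number and length should not be set against the CHIR99021 lists.

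The gene names are labels of the windows. The gene table at hand, of build GRCm38, places Msi2 on chromosome 11 between Ccdc182 and Akap1, Etl4 on chromosome 2 between Otud1 and Arhgap21, and Jarid2 on chromosome 13 between Cd83 and Dtnbp1. The chromosomes match those of the windows. Because the builds differ, no peak was placed in an exon, an intron or a promoter, and no sequence is shown.

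A shared region below is a stretch of overlapping or touching peaks that holds a peak of both CHIR99021 lists. The Msi2 window held 21 of the 9113 shared regions, the Etl4 window 18 and the Jarid2 window 16. Over all 2585 megabase windows the median was 3, and 336 windows held none. Just outside the choice stood 8 windows with 15 shared regions each, on chromosomes 1, 6, 11, 17, 18 and X, 3 of them on chromosome 17. Those 8 held 15 to 26 anti-FLAG and 17 to 26 streptavidin peaks, against 26 to 27 and 21 to 25 in the chosen windows. One of them, on chromosome 17 from 29000001 to 30000000, held 26 and 26 peaks, so the chosen windows were not the fullest in streptavidin peaks. In anti-FLAG peaks Etl4 and Jarid2 were the fullest of all windows, with 27 each.

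**Figure D1:**
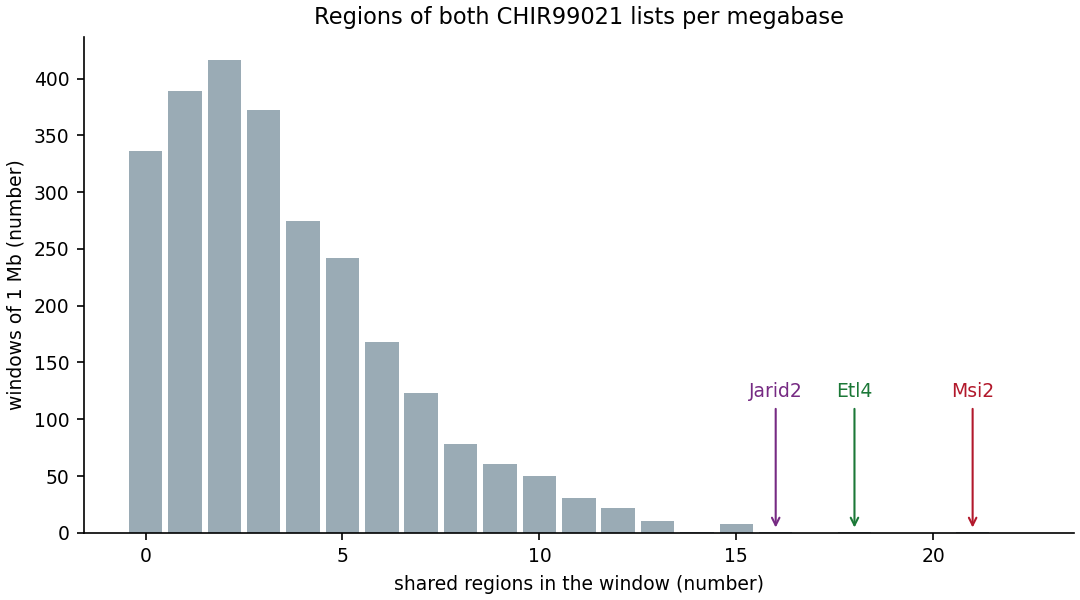
Number of 1 Mb windows (vertical axis) with each number of shared regions (horizontal axis), over all 2585 windows from the first to the last peak of each chromosome. Arrows mark the Msi2, Etl4 and Jarid2 windows with 21, 18 and 16 shared regions, beyond the 8 windows at 15.

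The order of the windows depends on where the megabases begin. When a 1 Mb stretch may start at any shared region, a choice added after seeing the data, a stretch overlapping the Msi2 window still led with 21. A stretch on chromosome 17 then held 20 and one on chromosome 1 held 19. Etl4 tied at 18 with stretches on chromosomes 4 and 17, and Jarid2 tied at 17 for rank 7. The megabases on either side of the Etl4 window held 7 and 6 shared regions, and those beside Jarid2 held 6 and 3. At Msi2 the megabase at lower coordinates held 10 and the one at higher coordinates 3.

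Each window mixed regions found by both captures with peaks seen by 1. At Msi2, 21 of 26 anti-FLAG and 21 of 25 streptavidin peaks had a partner in the other list. At Etl4 it was 18 of 27 and 18 of 21, and at Jarid2 16 of 27 and 16 of 24. Genome-wide, a partner was present for 57.6% of the anti-FLAG and 57.8% of the streptavidin calls, and nothing is read from this contrast, because shared regions chose the windows. Peaks without a partner held fewer tags by their medians. These were 32 anti-FLAG and 48 streptavidin tags at Msi2, 35 and 51 at Etl4, and 30 and 17.5 at Jarid2. Peaks with a partner had medians of 74 and 60, 83 and 72, and 54 and 51 in that order. The whole lists showed the same, with medians of 25 against 55 (anti-FLAG) and 22 against 46 (streptavidin).

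Several unpartnered peaks were not small, and 3 are named after their values were seen. In the Msi2 window a streptavidin peak (88395975 to 88398052) had 106 tags at a fold enrichment of 6.16 and no anti-FLAG call. In the Etl4 window an anti-FLAG peak (20658562 to 20660211) had 87 tags at 5.27-fold and no streptavidin call. In the Jarid2 window an anti-FLAG peak (44823472 to 44824526) had 76 tags at 8.43-fold, again without a streptavidin call. Fold enrichments are the authors' values over the local background and are compared only within a list. Of the Jarid2 anti-FLAG peaks, 8 of 27 had a p score under 60, where the limit is 50 (10 times −log10 p). In the whole anti-FLAG list 23.8% of peaks had such a score. Of the Jarid2 streptavidin peaks it was 5 of 24, beside 25.9% of that list.

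**Figure D2:**
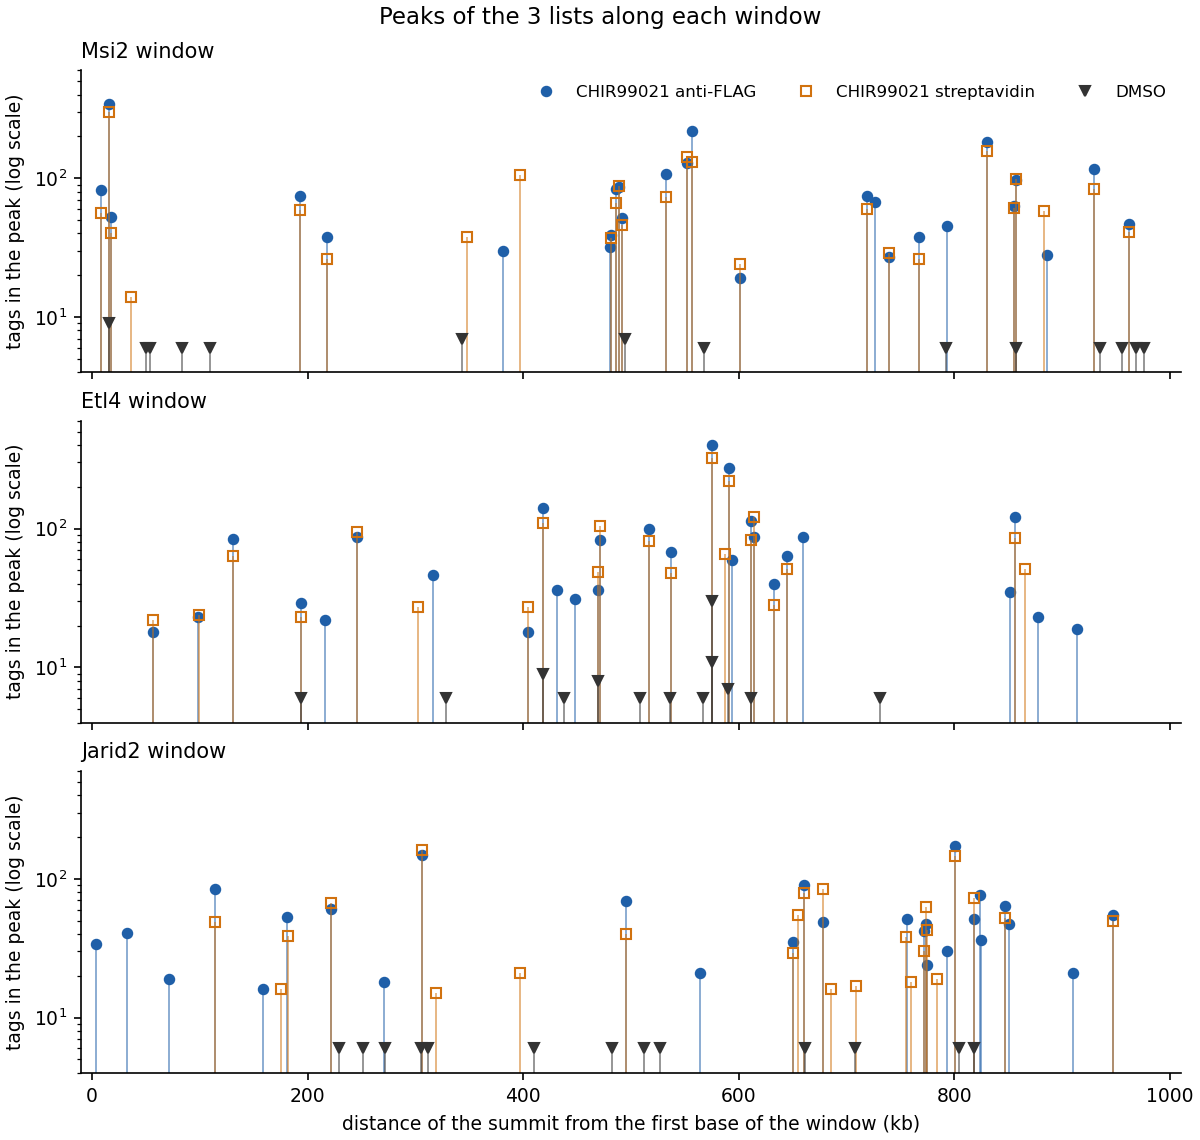
Tags in each peak (vertical axis, log scale) against the distance of its summit from the first base of the window (horizontal axis, kb), for the 3 lists in the Msi2, Etl4 and Jarid2 windows. CHIR99021 markers come in pairs where both captures called a peak, up to 344 tags at Msi2, 400 at Etl4 and 171 at Jarid2, while DMSO markers lie between 6 and 30.

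In the Msi2 window 1 region stood far above the others. It lay 15.7 kb into the window (88015183 to 88016284) and held 344 anti-FLAG and 302 streptavidin tags at fold enrichments of 51.51 and 56.74. Its peaks ranked 30 of 16069 and 38 of 15947 by p score. DMSO had 1 peak of 9 tags inside it. This region alone held 17.4% of the anti-FLAG tags in shared regions of the window and 18.3% of the streptavidin tags.

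The next 4 Msi2 regions by tags per 1000000 unique tags of the library (RPM) differed in enrichment. The region from 88555791 to 88558813, the longest of the window at 3023 bp, held 220 anti-FLAG and 132 streptavidin tags at 18.57- and 19.99-fold, the highest folds of the window after those of the leading region. That from 88829057 to 88830532 held 183 and 156 tags at 5.59- and 6.30-fold. From 88550682 to 88552505 there were 128 and 142 tags at 6.61- and 7.95-fold, and from 88928537 to 88930063 there were 116 and 84 tags at 7.82- and 9.11-fold. None of these 4 held a DMSO peak. The weakest Msi2 region (88600636 to 88601534) held 19 and 24 tags, with a streptavidin p score of 50.13, just above the limit. The other Msi2 region with a DMSO peak (88856553 to 88858682) held 97 and 98 tags, with summits 1 bp apart and a DMSO peak of 6 tags.

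In the Etl4 window the tags were concentrated near its middle. The strongest of all 55 regions by summed RPM (20574261 to 20577863) spanned 3603 bp and held 400 anti-FLAG and 322 streptavidin tags at 25.29- and 28.05-fold. DMSO had 2 peaks there, of 30 and 11 tags, the only DMSO peaks of 10 or more tags in the 3 windows. The one of 30 tags ranked 100 of 12734 in the DMSO list. The next region, 14.8 kb further on (20589451 to 20592211), held 272 and 220 tags at 13.27- and 15.21-fold, with a DMSO peak of 7 tags. The region from 20417481 to 20418935 held 141 and 110 tags, with summits of both captures 1 bp apart and a DMSO peak of 9 tags.

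The remaining Etl4 regions named by the rule were smaller. The region from 20613384 to 20615818 held 87 anti-FLAG and 121 streptavidin tags, and that from 20855584 to 20856864 held 122 and 86. Neither held a DMSO peak. The fewest tags, 18 and 22, lay in the region at the lower end of the window (20056405 to 20057038). Of the Etl4 peaks, 7 of 27 anti-FLAG and 7 of 21 streptavidin peaks belonged to the top 10% of their lists by p score. The Msi2 window had 2 and 2 such peaks, and the Jarid2 window 2 and 1.

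The regions of the Jarid2 window held fewer tags than those of the other windows. By median p score rank they were weaker than those of Etl4 by anti-FLAG only. Against Msi2 and all shared regions they were not weaker by either capture. Their median p score ranks were 4045 (anti-FLAG) and 3388.5 (streptavidin). At Msi2 these were 4781 and 4163, at Etl4 2891 and 4202, and over all shared regions 4830 and 4720, where a smaller rank is stronger. Its largest region (44799125 to 44801749) held 171 anti-FLAG and 145 streptavidin tags at 11.20- and 10.99-fold, without a DMSO peak. The region from 44304267 to 44306308 held 148 and 160 tags at 20.03- and 19.79-fold, with summits 5 bp apart and a DMSO peak of 6 tags. These were the only Jarid2 regions with 100 or more tags by either capture. The regions from 44659728 to 44660763 (91 and 79 tags), 44677197 to 44679154 (49 and 85) and 44221106 to 44222335 (61 and 67) followed. The lowest summed RPM, from 35 and 29 tags, lay in the region from 44649481 to 44650656.

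Over the shared regions of a window, anti-FLAG tags had a median of 74 at Msi2 (range 19 to 344), 83 at Etl4 (18 to 400) and 54 at Jarid2 (24 to 171). Streptavidin tags had a median of 60 (24 to 302), 72 (22 to 322) and 51 (29 to 160). All 9113 shared regions had medians of 55 and 46 tags. In RPM, the anti-FLAG medians were 4.60, 5.15 and 3.35 in the 3 windows and 3.42 over all shared regions. The streptavidin medians were 5.03, 6.03 and 4.27, against 3.85. Region lengths had medians of 1277, 1240 and 1174 bp, beside 1151 bp overall. The tags of Msi2 and Etl4 regions thus lay above the overall medians by both captures, and those of Jarid2 lay near the overall median by anti-FLAG. These levels are descriptions, since the rule used the same peaks.

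**Figure D3:**
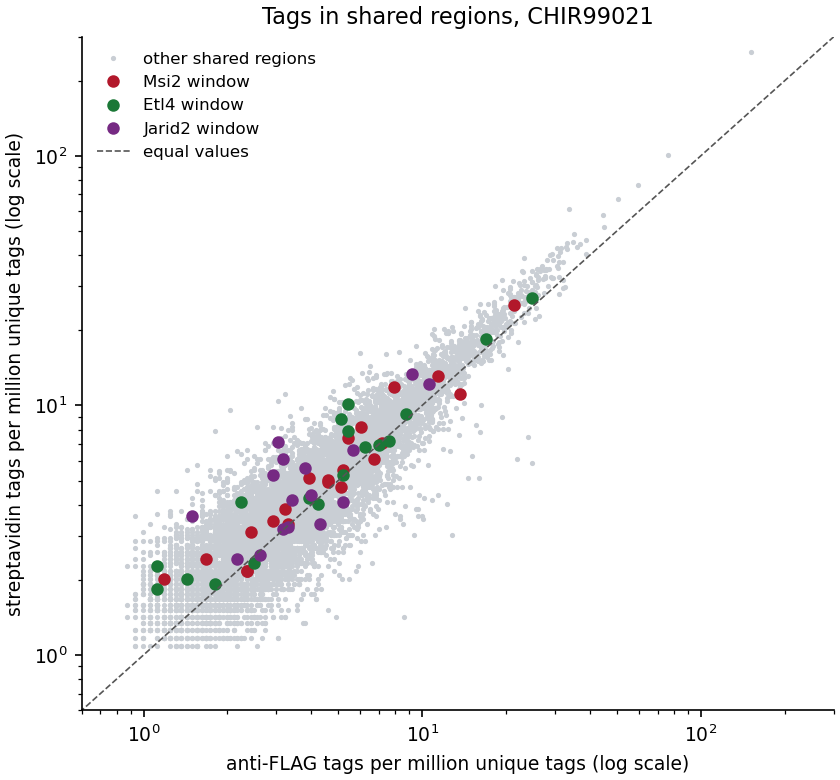
Tags per 1000000 unique tags (RPM) by streptavidin (vertical axis) against anti-FLAG (horizontal axis), both on log scales, for the 55 shared regions of the 3 windows (coloured) and the other 9058 (grey). The dashed line marks equal values, and the coloured points lie within the grey cloud, from 1.12 to 24.8 RPM by anti-FLAG.

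The captures gave similar relative levels in the windows. The streptavidin level divided by the anti-FLAG level, both in RPM, had a median log2 ratio of 0.20 at Msi2, 0.13 at Etl4 and 0.21 at Jarid2, and of 0.19 over all shared regions. Exact 95% intervals from the 2 tag counts left out that overall median in 11 of the 55 regions, beside 16.9% of all shared regions. They cover counting error only, and tags were counted over each capture's own interval, whose length can differ. Of the 11, 6 were in the Jarid2 window, 5 of them with relatively more streptavidin tags. The largest ratio there, at 44774509 to 44775329, came from 24 anti-FLAG and 43 streptavidin tags (log2 ratio 1.27, interval 0.52 to 2.06). The 1 with relatively fewer streptavidin tags, at 44113457 to 44114801, came from 84 and 49 tags (log2 ratio −0.35, interval −0.88 to 0.18).

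The median distance between the summits of the captures was 36 bp at Msi2, 57.5 bp at Etl4 and 60 bp at Jarid2, and 41 bp over all shared regions. Summits lay within 100 bp of each other in 15 of 21, 15 of 18 and 11 of 16 regions, or 41 of 55 in all, beside 7334 of all 9113 shared regions. The widest separation, 478 bp, was in the Etl4 region from 20404058 to 20405145, which held only 18 and 27 tags.

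The spacing of shared regions was uneven in each window. The median gaps between neighbouring midpoints were 25.4 kb at Msi2, 32.3 kb at Etl4 and 29.6 kb at Jarid2, and the longest were 264, 212 and 190 kb. Over all shared regions the median gap was 131 kb, a contrast that the choice of full windows fixes. Gaps under 10 kb numbered 7 of 20 at Msi2, 2 of 17 at Etl4 and 2 of 15 at Jarid2, beside 1012 of 9093 (11.1%) over all shared regions.

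The Msi2 regions formed a tight group of 4 between 88481125 and 88491820, all within 10.7 kb. Their anti-FLAG tags were 39, 84, 87 and 52 and their streptavidin tags 37, 66, 88 and 46, in map order. The inner pair was the stronger by both captures, and no DMSO peak lay in the group. Ahead of it came the longest gap of the window, from 88218656 to 88481125, which was empty of shared regions and held 2 streptavidin peaks, 2 anti-FLAG peaks and 1 DMSO peak. The closest Msi2 pair consisted of the strongest region and its neighbour from 88016905 to 88018319, with midpoints 1.88 kb apart and 53 and 40 tags in the weaker one. The region below the longest gap (88217586 to 88218656) held 38 anti-FLAG and 26 streptavidin tags.

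At Etl4, 10 of 18 shared regions lay in 176 kb, from 20468683 to 20644990, with 1261 of the 1783 anti-FLAG tags of the window's shared regions and 1108 of the 1557 streptavidin tags. The closest pair, 1.93 kb between midpoints, began this stretch. Its members held 36 and 49 tags (20468683 to 20469614) and 82 and 105 tags (20470115 to 20472041), anti-FLAG before streptavidin. After the stretch came 212 kb without a shared region, up to the last one at 20855584. It held 2 anti-FLAG peaks, no streptavidin peak and 1 DMSO peak of 6 tags. The region at its lower edge (20643971 to 20644990) had 63 and 51 tags.

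At Jarid2, 10 of 16 shared regions lay in 198 kb, from 44649481 to 44847771. Within it, 5 lay in the 46.6 kb from 44755139 to 44801749. The closest pair of all 3 windows was there, with midpoints 1.30 kb apart and 300 bp between the intervals. One member (44773038 to 44774208) held 47 anti-FLAG and 63 streptavidin tags, the other (44774509 to 44775329) 24 and 43. The longest gap, 190 kb, ran between the regions from 44304267 and from 44494771 and held 2 streptavidin and 3 DMSO peaks. The region that ended it (44494771 to 44495753) had 69 anti-FLAG and 40 streptavidin tags.

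**Figure D4:**
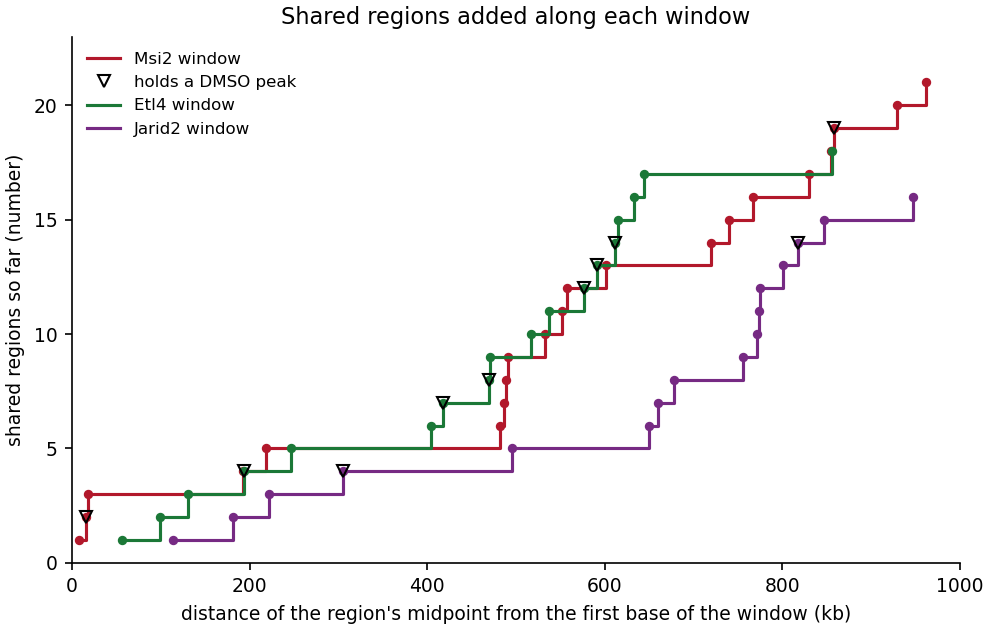
Running number of shared regions (vertical axis) against the distance of their midpoints from the first base of the window (horizontal axis, kb), with triangles where a region holds a DMSO peak. Steep parts lie from 482 to 491 kb at Msi2, from 469 to 644 kb at Etl4 and from 756 to 800 kb at Jarid2, and flat parts are gaps of up to 264 kb.

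DMSO peaks did not enter the choice of windows. The Msi2 window held 14, the Etl4 window 13 and the Jarid2 window 13, each against a median of 4 over all megabase windows. On chromosomes 11, 2 and 13 the medians were 6, 4 and 4. At least 13 DMSO peaks were found in 7.00% of all windows (181 of 2585). Among the 122 windows with 10 to 15 shared regions it was 22.1%. Both shares include chromosomes 8 and 9, with medians of 10 and 10.5 DMSO peaks per window. Without chromosomes 8, 9, X and Y the latter share was 16.8% (18 of 107).

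Most of these peaks were as small as the list allows. Of the 40, 32 held exactly 6 tags, the smallest count deposited, as did 9083 of all 12734 DMSO peaks. All 13 at Jarid2 did, 11 of 14 at Msi2, where the others had 7, 7 and 9 tags, and 8 of 13 at Etl4, where the others had 7, 8, 9, 11 and 30. DMSO tags summed to 89 at Msi2, 113 at Etl4 and 78 at Jarid2.

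The windows differed in where DMSO peaks lay. In the Etl4 window 7 of 13 (53.8%, exact 95% interval 25.1 to 80.8%) overlapped a CHIR99021 peak, with 77 of the 113 tags. At Msi2 it was 2 of 14 (14.3%, 1.78 to 42.8%) and at Jarid2 2 of 13 (15.4%, 1.92 to 45.4%). The 3 intervals overlap, and 15.0% of all DMSO peaks lay in a CHIR99021 peak. Pooled over the windows it was 11 of 40 (27.5%, 14.6 to 43.9%). Among peaks of 6 tags, 5 of 32 overlapped (15.6%, 5.28 to 32.8%), beside 7.03% outside the windows. Among larger ones, 6 of 8 did (interval 34.9 to 96.8%), beside 34.6%. The DMSO peaks of 30 and 11 tags lay in the same Etl4 region and are not independent, so the intervals that count both are too narrow. The windows were chosen for many CHIR99021 regions, which gives DMSO peaks more sequence to overlap. Nothing is read from these contrasts with the other DMSO peaks.

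Seen from the shared regions, 10 of 55 held a DMSO peak (18.2%, 9.08 to 30.9%), beside 12.9% of all shared regions, a value inside that interval. By window these were 6 of 18 at Etl4 (33.3%, 13.3 to 59.0%), 2 of 21 at Msi2 (9.52%, 1.17 to 30.4%) and 2 of 16 at Jarid2 (12.5%, 1.55 to 38.3%). Without the Etl4 window the share was 4 of 37, or 10.8%. The DMSO-positive regions had more tags under CHIR99021. Their median was 127 anti-FLAG and 104 streptavidin tags, against 63 and 52 for the other 45. The same held outside the windows, with 118.5 and 100 tags against 51 and 43. Among regions of 100 or more anti-FLAG tags, 6 of 14 in the windows held a DMSO peak (42.9%, 17.7 to 71.1%), beside 35.7% of the 1920 elsewhere.

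Among the strongest regions, DMSO tags followed CHIR99021 tags only in part. The leading Etl4 region had the most CHIR99021 tags of the 55, 400 and 322, and also the most DMSO tags, 41 in 2 peaks. The leading Msi2 region, at 344 and 302 tags, had 9 DMSO tags. The Msi2 region with 220 and 132 tags and the Jarid2 region with 171 and 145 had none called, which sets no limit on binding. At the low end, the Etl4 region from 20193791 to 20194650, with 29 and 23 tags, still held a DMSO peak of 6. None of the 40 regions of these windows held by 1 CHIR99021 list alone contained a DMSO peak. Such regions seldom did in the whole data, with 162 of 6814 anti-FLAG and 163 of 6731 streptavidin regions, and nothing is read from the 0.

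Outside CHIR99021 peaks there were 12 DMSO peaks at Msi2, 6 at Etl4 and 11 at Jarid2. All 29 but 2 held exactly 6 tags, the exceptions being 7-tag peaks at Msi2. They lay a median of 7.29 kb from the nearest CHIR99021 peak, and 5 lay within 1 kb. At Msi2, 4 of them stood in the stretch without shared regions from 88018319 to 88191931, which held 1 CHIR99021 peak (streptavidin, 14 tags). They lay at 49.6, 54.0, 83.4 and 109 kb into the window, and another 4 lay between 935 and 976 kb. At Jarid2, 8 of the 11 lay below 44649481, ahead of the stretch with most of its shared regions.

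**Figure D5:**
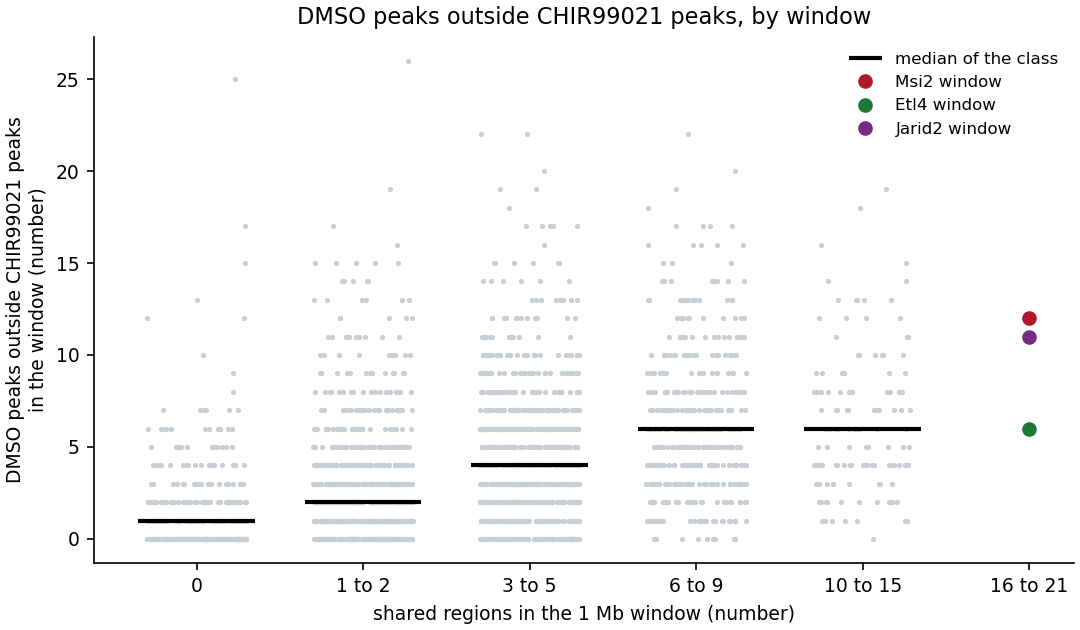
DMSO peaks outside CHIR99021 peaks (vertical axis) in 1 Mb windows grouped by their number of shared regions (horizontal axis). Grey points are windows, spread sideways for visibility, bars are class medians of 1, 2, 4, 6 and 6, and the coloured points are Msi2 at 12, Jarid2 at 11 and Etl4 at 6.

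Across all windows, those with more shared regions also held more DMSO peaks outside any CHIR99021 peak. The class median was 1 in windows with no shared region, 2 with 1 to 2, 4 with 3 to 5, 6 with 6 to 9 and 6 with 10 to 15. The smallest number in the 3 windows described here, 6 at Etl4, was reached in 30.4% of all windows. It equals the median of windows with 10 to 15 shared regions. The 12 at Msi2 was reached in 140 of the 2585 windows and the 11 at Jarid2 in 182. Both lay above the upper quartile of windows with 10 to 15 shared regions, which was 8. Across the 2585 windows Spearman's rho was 0.47. DMSO peaks were uneven over chromosomes, with a median of 10 per window on chromosome 8, 10.5 on chromosome 9, 7 on Y and 0 on X, and rho was 0.46 over the 2169 windows without these. It is given as a description, because windows share libraries, mappable sequence and base composition.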

How the data were processed

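β-Catenin ChIP-seq peaks of 3 libraries were analysed, with 1 library per group. Peaks were called with MACS (version not given in the sources used here) on ELAND alignments at a p-value limit of 1.00e-05, a tag size of 25 and a band width of 300 bp, per the file headers. Coordinates are in mm9, a build named in the submitters' processing notes. The deposited tables give tag counts per peak, a score of 10 times −log10 of the p-value, a fold ratio over local background, and the false discovery rate in percent (FDR). Intervals cover counting error only. Any PCR copies left among the tags are not independent molecules and would make the intervals from tag counts too narrow.

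Peaks from the 3 lists that overlapped or touched (minimum overlap 1 bp) were joined into regions with Python 3.11.15, pandas 2.3.3, numpy 2.4.6 and scipy 1.17.1. Figures were drawn with matplotlib 3.10.9. A region was placed by its midpoint and a peak by its summit. Tags per 1000000 (RPM) are deposited tag counts divided by the unique tags of the library. Shares carry exact Clopper-Pearson intervals of 95%. Merging was tested on simulated data, where 300 of 300 planted shared regions were recovered. With 1 library per group no test was made. The windows, lists and rules were chosen with earlier results of these data known. Regions named in the text are, in each window, the 5 with the highest RPM summed over both CHIR99021 lists, the one with the fewest, the closest and the farthest neighbouring pair, and those with a DMSO peak of 10 or more tags. Others are named to describe groups and DMSO peaks and were chosen after their values were seen. Alternatives covered stricter peaks, other definitions of a shared region and shifted windows. The 2 input libraries entered only through the authors' peak calls.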

Additional observations from a re-analysis of the deposited data

How the results depend on the processing

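No paired analysis was possible because every condition and capture came as a single library. Of 82 recomputed values, 59 stayed within the limits set for them (1.5 times for a count) and 23 did not. Most of the 23 came from keeping only peaks with a p score of at least 100, which leaves fewer peaks. Shared regions then numbered 13 at Msi2, 10 at Etl4 and 9 at Jarid2, and the median gap was 52.9 kb at Etl4 and 89.4 kb at Jarid2. Anti-FLAG peaks numbered 14, 16 and 12 in that order, and streptavidin peaks 13 at Etl4 and 14 at Jarid2. DMSO peaks numbered 0, 1 and 0, and 3.13% of shared regions held one. With DMSO peaks of at least 10 tags only, the windows held 0, 2 and 0, and 1.82% of shared regions held one. Moving the windows by 250 kb changed the median gap to 69.7 kb at Jarid2 (to lower coordinates) and to 20.4 kb at Etl4 (to higher), and shared regions then numbered 11 to 17. With an FDR of at most 1% for CHIR99021 peaks they numbered 15, 15 and 14, and 18.2% held a DMSO peak. The regions lost include the leading ones of Msi2 and Etl4, whose anti-FLAG peaks had an FDR of 3.33% and 1.31% at 344 and 400 tags. Leaving out the Etl4 window, merging the CHIR99021 lists alone and placing the megabase freely were chosen after seeing the data. DMSO depth is unknown, which limits every share that counts DMSO peaks.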
